A study of Mus musculus with 9 samples.

Results

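Src family kinases are tyrosine kinases at the inner face of the cell membrane that pass signals on from immune receptors, integrins and growth factor receptors. Most kinases of the family, with 2 genes that restrain them, were followed in RNA from cells rinsed out of the peritoneal cavity of diabetic and non-diabetic mice. The members were Src, Lyn, Fgr, Fyn, Yes1, Blk, Csk and Pag1, which make 8 of the 41096 genes in the table. Rows whose name equals a member gave 7 of them. The row of Lyn carries only an identifier as its name (MGP_C57BL6NJ_G0028436), and it was taken because the table's own description matches it to the mouse Lyn protein in UniProt.

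Gene expression was measured by RNA sequencing in 4 diabetic and 5 control samples. All mice were of the APOE-/- genotype, lacking apolipoprotein E, and all ate a western diet for 8 weeks. Diabetic mice had first received streptozotocin, which destroys the insulin-producing cells, in 5 daily doses of 40 mg/kg begun at 8 weeks of age, and control mice had been given citrate buffer in its place. Both groups were then injected with thioglycollate (1.5 mL at 3%), which makes leukocytes enter the cavity, and the exudate was rinsed out with 10 mL of saline 3 days later. No step that selects a cell type is described in the labels, and they do not say whether a sample is 1 mouse or a pool, so p-values measure only the spread between these samples. The series title sets the kinase Src beside lactate and the receptor GPR132.

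As background, Lyn and Fgr act in macrophages and neutrophils, Blk and Lyn in B cells, and Lck and Fyn in T cells, while Src, Yes1 and Fyn are found in many tissues. In the resting enzyme a phosphate on a tyrosine in the tail folds the kinase shut. The kinase Csk adds that phosphate, and Pag1 is a membrane adaptor that can hold Csk near its targets. In macrophages the family acts downstream of Fc receptors, integrins and growth factor receptors, and Lyn also feeds inhibitory receptors.

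Stretches of DNA before the start of 3 members are given because Src and Yes1 were the lowest members and Fgr among the higher ones, a choice made after the levels were seen. RefSeq promoters (build GRCm38.p6) were matched by symbol for 5 of the 8 members, Src, Fgr, Yes1, Csk and Fyn. Each run holds the 250 bases before an annotated start, read 5′ to 3′ on the gene's strand, and capitals mark GGGCGG (the GC box) and GAGGAA (the PU box), searched on both strands, so that CCGCCC and TTCCTC are marked too. No marked motif overlaps another.
Src, chr2:157424043-157424292, + strand: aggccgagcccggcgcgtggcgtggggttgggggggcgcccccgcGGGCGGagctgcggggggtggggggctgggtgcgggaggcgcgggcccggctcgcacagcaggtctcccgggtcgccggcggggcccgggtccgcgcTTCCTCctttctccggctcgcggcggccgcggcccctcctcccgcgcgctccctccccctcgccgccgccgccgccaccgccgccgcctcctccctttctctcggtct
Yes1, chr5:32610921-32611170, + strand: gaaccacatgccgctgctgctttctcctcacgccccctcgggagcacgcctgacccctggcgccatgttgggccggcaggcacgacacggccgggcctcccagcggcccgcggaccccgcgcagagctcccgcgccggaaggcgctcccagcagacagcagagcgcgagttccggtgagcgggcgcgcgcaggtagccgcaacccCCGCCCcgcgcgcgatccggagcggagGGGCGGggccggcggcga
Fgr, chr4:132973845-132974094, + strand: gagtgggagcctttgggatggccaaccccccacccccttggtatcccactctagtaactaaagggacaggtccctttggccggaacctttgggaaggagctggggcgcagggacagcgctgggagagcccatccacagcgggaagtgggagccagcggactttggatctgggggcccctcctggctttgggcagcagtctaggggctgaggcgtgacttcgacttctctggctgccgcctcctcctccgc
The window of Src holds 40 CpG dinucleotides and that of Yes1 holds 37, against 9 in the window of Fgr. Of the other matched members, Fyn had 21 CpG, and Csk, the highest member, had 16 and 7 in its 2 annotated windows. Of all 32851 windows of this length, 98.7% had fewer CpG than Src, 97.8% fewer than Yes1 and 59.7% fewer than Fgr. The GC content was 82.8% for Src, 77.2% for Yes1 and 64.4% for Fgr. The GC box occurred once in Src, 2 times in Yes1, once in Fyn and not in Fgr or Csk, and 32.7% of all windows held it. The PU box occurred once in Src, 2 times and once in the windows of Csk, and not in Yes1, Fgr or Fyn, against 23.3% of all windows. The TATA box (TATAAA) was in 0 of the 3 windows and in 12.4% of all windows. These matches describe the letters of the windows and were not set against any binding data.

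Each library held 14156421 to 16169060 reads in genes. The macrophage genes Adgre1, Csf1r and Cd68 were high in every sample, with Cd68 at 774 to 1437 FPKM in diabetic and 891 to 1442 FPKM in control samples (FPKM are fragments per kilobase of gene length, scaled for the depth of the library). The row named Itgam, another macrophage marker, lay at 0.0583 to 0.246 FPKM, while a second, unnamed row described as the same protein held 87.6 to 192 FPKM. Sums of macrophage markers given here hold the named row and not the second one. Lymphocyte genes were plentiful beside them: 10 B cell markers summed to 1535 to 3290 FPKM in diabetic and 995 to 2093 FPKM in control samples. The labels call the cells peritoneal macrophages. In a mixture of cell types fewer cells of a type and less RNA per cell cannot be told apart. Diabetic 3 stood apart from the other diabetic samples in its B and T cell genes, and values without it are given for Lyn, Fgr, Blk and several of the listed genes.

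The 8 genes spanned a wide range of levels, and their order was nearly the same in both groups. In diabetic samples the mean levels per length ran Csk (133 FPKM), Lyn (103 FPKM), Blk (52.3 FPKM), Fgr (49.95 FPKM), Fyn (17.4 FPKM), Pag1 (4.54 FPKM), Src (0.523 FPKM) and Yes1 (0.104 FPKM). The order in control samples was Csk (129.7 FPKM), Lyn (83.8 FPKM), Fgr (65.1 FPKM), Blk (38.8 FPKM), Fyn (15.9 FPKM), Pag1 (3.99 FPKM), Src (0.695 FPKM) and Yes1 (0.0866 FPKM). Only Blk and Fgr changed places. Blk exceeded Fgr in 3 of 4 diabetic samples, and Fgr exceeded Blk in 5 of 5 control samples. Every other neighbour in the order kept its place in each of the 9 samples. The ranges of Blk and Fgr overlapped in both groups, and so did those of Lyn and Fgr in control samples. Src, which gives the family its name, was outnumbered by Fyn, the next kinase above it, in all libraries. Among all genes of the table, Csk ranked 489 by mean level, Lyn 700, Fgr 1083, Blk 1411, Fyn 3345, Pag1 7491, Src 12130 and Yes1 16152.

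**Figure D1:**
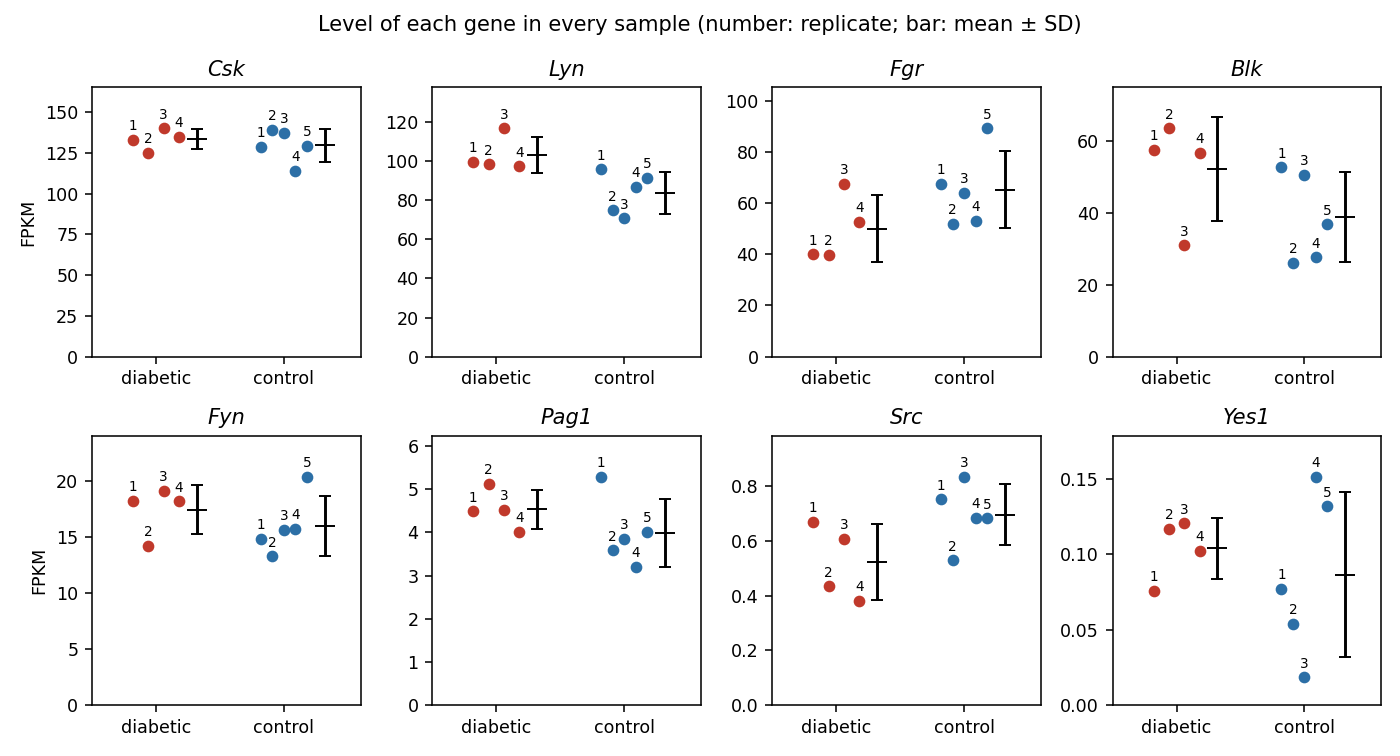
Level of each gene (vertical axes, FPKM, each from 0) in 4 diabetic samples (red) and 5 control samples (blue). Points are single samples with their replicate number, and bars are mean ± SD. The 4 diabetic values of Lyn lie between 97.3 and 117 FPKM, above all control values, and in the other 7 panels the groups overlap.

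No member passed the test between diabetic and control samples. The comparison was fitted by limma on log2(FPKM + 1) over the 11193 genes that reached 1 FPKM in at least 4 samples, with Benjamini-Hochberg adjustment over all of them and 0.05 as the threshold. That filter kept 6 of the 8 members and left Src and Yes1 under it. Of the 6, 0 passed (limma), against 4.76% of all genes tested (2.68% higher and 2.08% lower in diabetic samples). An unadjusted p below 0.05 was reached by 1 of the 6, Lyn, against 22.4% of all genes tested. The median log2 fold change of the 6 was 0.14, beside -0.013 over all genes tested, with 5 positive and 1 negative value, where 47.7% of all genes tested were positive.

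**Figure D2:**
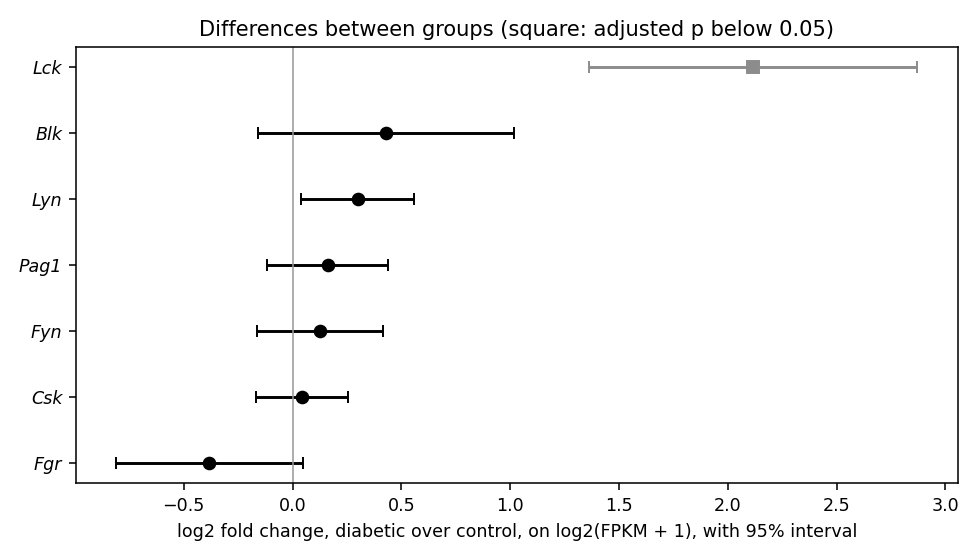
Log2 fold change, diabetic over control, on the log2(FPKM + 1) scale (horizontal axis), with its 95% interval, for the 6 members in the fit (black) and for Lck (grey). The square marks Lck, the only gene shown with an adjusted p below 0.05, and the intervals of Lyn and Lck alone do not include 0.

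Lyn, a kinase of both activating and inhibitory receptors in myeloid and B cells, lies on chromosome 4 (253641 to 412833 in the table's coordinates, + strand). Its level was 99.7, 98.3, 117 and 97.3 FPKM in diabetic 1 to 4, against 95.8, 74.8, 70.6, 86.6 and 91.3 FPKM in control 1 to 5. Every diabetic sample lay above every control sample, with diabetic 4 and control 1 the closest pair. The mean was 103 ± 9.19 FPKM in diabetic samples and 83.8 ± 10.8 FPKM in control samples (SD, n = 4 and n = 5), a log2 fold change of 0.30 (SE 0.12, 95% interval 0.040 to 0.56, limma adjusted p = 0.16). Such a separation was seen in 1 of the 6 members in the fit and in 9.42% of all genes tested (4.82% higher and 4.6% lower in diabetic samples). When each of the 9 samples was left out in turn, the log2 fold change of Lyn ran from 0.24 to 0.35 and the limma adjusted p from 0.15 to 0.31. Without diabetic 3, its highest sample, the difference was 0.24 (limma adjusted p = 0.24). B cell markers were higher in the other 3 diabetic samples (2623 to 3290 FPKM summed) than in diabetic 3 (1535 FPKM), whereas the summed macrophage markers were highest in diabetic 3 (2401 FPKM, against 1343 to 1692 FPKM in the other diabetic and 1658 to 2314 FPKM in control samples). Diabetic 3 ranked 1 and control 1 ranked 5 by both Lyn and the macrophage sum, and every other sample differed. Control 2 and 3 ranked 2 and 3 by that sum and 8 and 9 by Lyn, and diabetic 4 ranked 9 and 4. The part of either marker list in the values of Lyn was not tested.

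Fgr, a kinase of monocytes, macrophages and neutrophils that acts behind integrins and Fc receptors, lies on chromosome 4 (140040017 to 140075466, + strand) and was the one member in the fit with a negative difference. It had 39.96, 39.7, 67.4 and 52.8 FPKM in diabetic 1 to 4, against 67.6, 51.9, 64.0, 53.0 and 89.1 FPKM in control 1 to 5. Diabetic 1 and 2 lay below every control sample, while diabetic 3 and 4 lay inside the control range. The means were 49.95 ± 13.1 FPKM in diabetic and 65.1 ± 15.0 FPKM in control samples (SD, n = 4 and n = 5; log2 fold change -0.38, SE 0.19, 95% interval -0.81 to 0.046, limma adjusted p = 0.27). With weights that limma sets per sample, Fgr passed at a log2 fold change of -0.59 (limma adjusted p = 0.045). With those weights 1304 of 11193 genes passed, against 533 without them. The limma adjusted p of Fgr was 0.090 to 0.53 with each sample left out in turn. Without diabetic 3 the log2 fold change of Fgr was -0.54 (limma adjusted p = 0.090). Control 5, the highest sample of Fgr, also had the highest sum of 8 neutrophil markers (1149 FPKM). Control 1 and control 3 also held the same rank in both orders, and every other sample differed. Diabetic 2, for one, ranked 9 by Fgr and 5 by the neutrophil sum. That sum ran from 120.2 to 539 FPKM in diabetic and from 117 to 1149 FPKM in control samples, and 0 of 7 tested markers passed (limma). Of the 7, 5 had negative and 2 positive differences (median log2 fold change -0.42), with 95% intervals as wide as -2.33 to 2.33. Eosinophil markers summed to 8.56 to 17.8 FPKM in diabetic and 15.2 to 53.2 FPKM in control samples, with control 5 again the highest. Whether either cell type bears on Fgr was not tested.

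Blk, the B lymphoid kinase (chromosome 14, 60640515 to 60685447, - strand), was measured at 57.6, 63.7, 31.0 and 56.9 FPKM in diabetic 1 to 4 and at 52.8, 26.1, 50.8, 27.7 and 36.9 FPKM in control 1 to 5. Diabetic 1, 2 and 4 lay above all control samples, and diabetic 3 lay among the lowest of them. The log2 fold change was 0.43 (SE 0.27, 95% interval -0.16 to 1.02, limma adjusted p = 0.38), from 52.3 ± 14.5 FPKM in diabetic and 38.8 ± 12.5 FPKM in control samples (SD, n = 4 and n = 5). Without diabetic 3 it was 0.66 (limma adjusted p = 0.11). The order of samples by Blk followed that of the summed B cell markers at 6 of 9 ranks, across both groups. Control 1, control 3, control 5, diabetic 3, control 4 and control 2 filled the lower ranks of both in that order, from 52.8 to 26.1 FPKM of Blk and from 2093 to 995 FPKM of B cell markers. Of 9 tested B cell markers 4 rose and 0 fell (median log2 fold change 1.01), against 2.68% and 2.08% of all genes tested. The 4 were Ighd, Vpreb3, Fcer2a and Fcmr, with log2 fold changes of 1.55 to 2.48. Ms4a1, Cd79a, Ighm, Cd79b and Pax5 did not pass, with log2 fold changes of 0.31 to 1.01 (limma adjusted p = 0.15 to 0.64). Of the 10 markers, 0 were at 0 in every sample. Their part in the values of Blk was not tested.

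**Figure D3:**
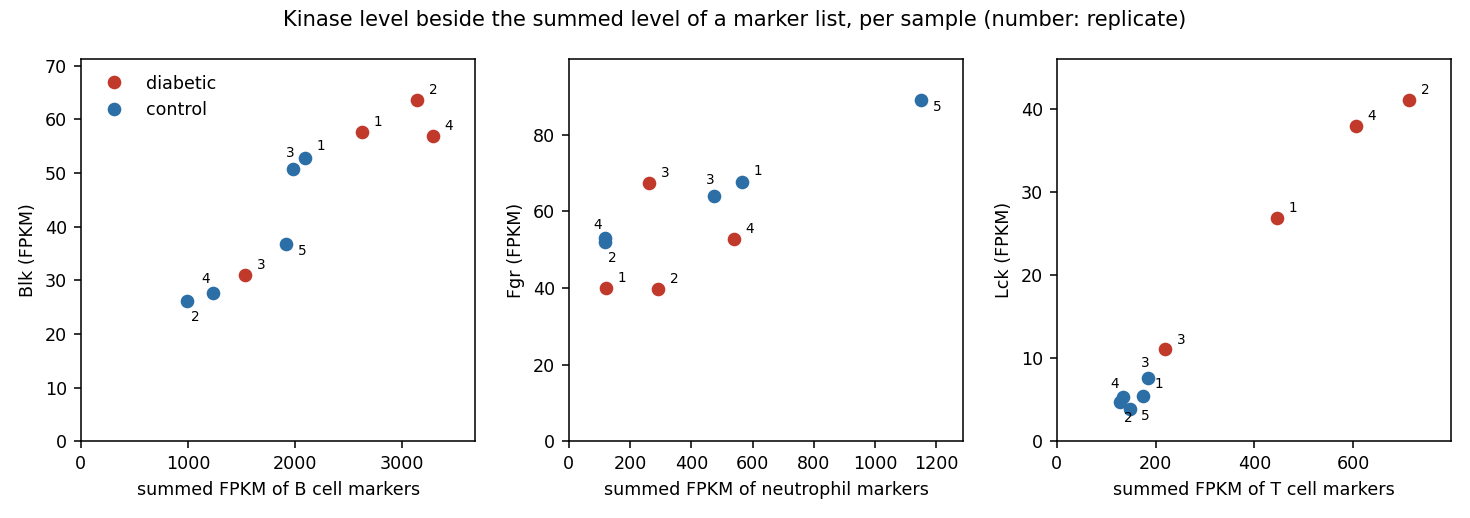
Levels of Blk, Fgr and Lck (vertical axes, FPKM) beside the summed FPKM of B cell, neutrophil and T cell markers (horizontal axes). Each point is 1 sample, diabetic in red and control in blue, with its replicate number. For Blk and Lck, diabetic 1, 2 and 4 lie at the upper right and diabetic 3 lies near the control samples.

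Fyn, a kinase of T cells and of many other cell types, lies on chromosome 10 (39039603 to 39242400, + strand). It had overlapping levels in both groups, 14.2 to 19.1 FPKM in diabetic and 13.2 to 20.3 FPKM in control samples (mean 17.4 ± 2.19 FPKM in diabetic and 15.9 ± 2.64 FPKM in control samples, SD, n = 4 and n = 5). Its log2 fold change was 0.13 (SE 0.13, 95% interval -0.16 to 0.41, limma adjusted p = 0.61). Diabetic 2, which had the highest sum of 11 T cell markers (712 FPKM), had the lowest Fyn of the diabetic samples. Lck, the T cell kinase, rose to 26.9, 41.2, 11.1 and 37.97 FPKM in diabetic 1 to 4, against 5.47, 4.68, 7.60, 5.30 and 3.92 FPKM in control 1 to 5 (log2 fold change 2.12, SE 0.34, limma adjusted p = 0.013). The T cell markers summed to 219 to 712 FPKM in diabetic and 128 to 185 FPKM in control samples. Of these 11 markers 10 rose, against 2.68% of all genes tested. The other, Cd2, did not pass (log2 fold change 0.56, limma adjusted p = 0.15). Cd2 made up 73.9 to 118 FPKM of the sum in control and 87.2 to 167 FPKM in diabetic samples. The part of the T cell markers in the rise of Lck was not tested.

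Src (chromosome 2, 167257388 to 167313295, + strand, identifier MGP_C57BL6NJ_G0027206) rested on 26 to 52 reads per sample. It had 0.669, 0.434, 0.607 and 0.381 FPKM in diabetic 1 to 4, against 0.750, 0.528, 0.832, 0.684 and 0.681 FPKM in control 1 to 5. Diabetic 2 and 4 lay below every control sample, and diabetic 1 and 3 lay between control 2 and the other control samples. The difference in mean log2(FPKM + 1) was -0.16 (exact two-sided permutation p = 0.095 with 0.0079 the smallest p this design allows). Without control 2, its lowest control sample, the difference was -0.19 with an exact two-sided permutation p of 0.029, and 4 against 4 samples allow no smaller p. With any other sample left out the exact p was 0.071 to 0.23. Counting error alone gives each library's value a coefficient of variation of 13.9 to 19.6%, and the samples varied by 26.2% among diabetic and 16.1% among control samples. Copies made by PCR cannot be told from separate molecules, so counting error is a lower limit. With 10 reads as the minimum, limma voom on the recovered reads gave a log2 fold change of -0.43 (limma adjusted p = 0.38). Yes1, a widely expressed relative of Src (chromosome 5, 32513696 to 32578908, + strand), had 2 to 16 reads per library, 0.0761 to 0.121 FPKM in diabetic and 0.0186 to 0.151 FPKM in control samples. Its difference of 0.024 in mean log2(FPKM + 1) did not pass (exact two-sided permutation p = 0.56), and counting error alone gives each library's value of Yes1 a coefficient of variation of 25.0 to 70.7%.

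Csk, the kinase that shuts the family off (chromosome 9, 58433822 to 58455144, - strand), was the highest and the steadiest of the 8 genes. It had 133, 125, 140.1 and 135 FPKM in diabetic 1 to 4, against 129, 139, 137, 114 and 129 FPKM in control 1 to 5, and the groups overlapped throughout. The log2 fold change was 0.043 (SE 0.096, limma adjusted p = 0.83), and its 95% interval of -0.17 to 0.25 bounds the difference. The samples varied by 4.61% among diabetic and 7.72% among control samples, the smallest spread of the members in each group. Pag1, the membrane anchor of Csk (chromosome 3, 7249362 to 7405779, - strand), had 4.02 to 5.12 FPKM in diabetic and 3.21 to 5.28 FPKM in control samples. Each diabetic value exceeded the control mean of 3.99 FPKM, and control 1 was the highest of all samples (log2 fold change 0.16, SE 0.13, 95% interval -0.12 to 0.44, limma adjusted p = 0.48).

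Within each library the levels of 8 kinases (the 6 member kinases with Lck and Frk) were set against their sum. That sum was 243 to 264 FPKM in diabetic and 171 to 242 FPKM in control samples. Without Lck it was 216 to 235 FPKM in diabetic and 167 to 238.5 FPKM in control samples, and the groups overlapped. Lyn and Fgr together made up 53.6 to 74.8% of the sum of all 8 in diabetic and 64.3 to 74.4% in control samples. Fgr alone made up 15.4 to 27.4% in diabetic and 27.98 to 36.8% in control samples, and Lck 4.50 to 15.98% in diabetic and 1.62 to 3.63% in control samples. Src accounted for 0.144 to 0.275% of the sum in diabetic and 0.281 to 0.397% in control samples. Diabetic 3 had the largest shares of Lyn and Fgr among diabetic samples and the smallest shares of Blk and Lck. The ratio of Csk to this sum was 0.486 to 0.569 in diabetic and 0.534 to 0.812 in control samples. These shares describe RNA levels and carry no test.

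**Figure D4:**
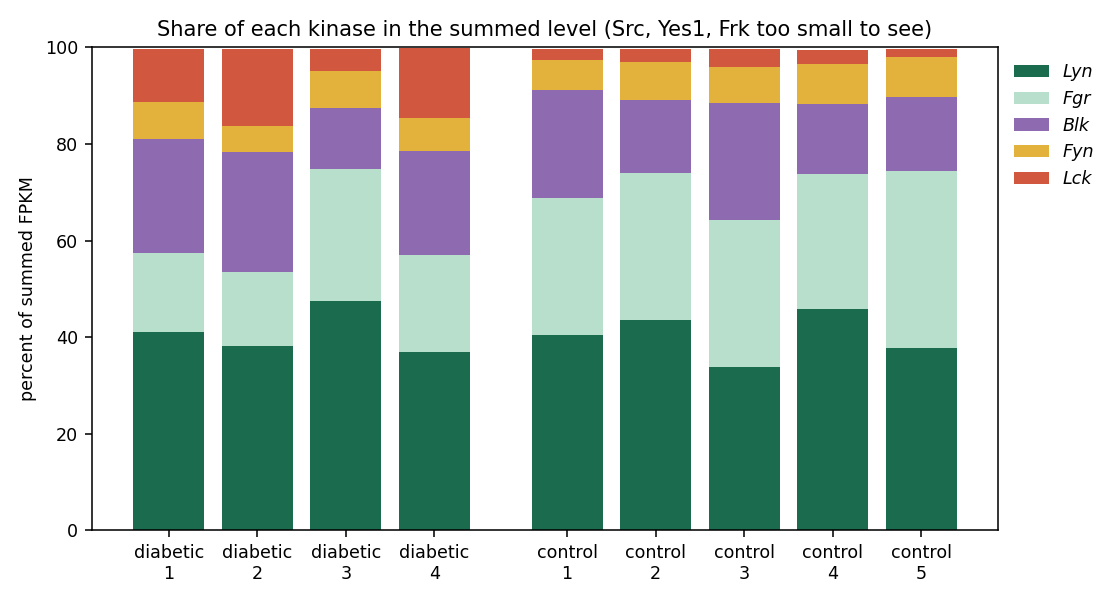
Share of each kinase (vertical axis, percent of the summed FPKM of 8 kinases) in each of the 4 diabetic and 5 control samples. Lyn and Fgr (greens) fill 53.6 to 74.8% of the bar in diabetic and 64.3 to 74.4% in control samples, and Lck (red) is taller in the diabetic samples.

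Genes around the family were read from lists. Of all genes tested, 2.68% passed as higher, 2.08% passed as lower and 47.7% had a positive difference. Of 12 tested genes that restrain the kinases or their signals, 3 rose and 2 fell (median log2 fold change 0.016, beside -0.013 over all genes tested). Matk, the closest relative of Csk, which also phosphorylates the inhibitory tail, fell to 6.05, 5.24, 3.97 and 4.58 FPKM in diabetic 1 to 4, against 8.65, 14.6, 12.2, 13.2 and 11.4 FPKM in control 1 to 5 (log2 fold change -1.12, SE 0.15, limma adjusted p = 0.0055). The groups did not overlap, and Matk passed whichever sample was left out (9 of 9). Csk itself, at over 100 FPKM in every sample, stood far above Matk. Dok2, an adaptor that dampens signals of tyrosine kinases in myeloid and T cells, fell to 87.3 ± 7.27 FPKM in diabetic samples, against 156 ± 17.1 FPKM in control samples (SD, n = 4 and n = 5; log2 fold change -0.83, SE 0.11, limma adjusted p = 0.0054). It too passed whichever sample was left out. Lax1, an adaptor that restrains lymphocyte receptor signals, rose to 6.87 to 23.7 FPKM in diabetic samples, against 4.32 to 5.63 FPKM in control samples (log2 fold change 1.51, SE 0.30, limma adjusted p = 0.023). Without diabetic 1, diabetic 2, diabetic 4 or control 3 it no longer passed (limma adjusted p = 0.064, 0.076, 0.084 and 0.057), and without diabetic 3 its log2 fold change was 1.89. Sla2, an adaptor that lowers antigen receptor signalling, rose to 2.48 ± 0.941 FPKM in diabetic samples, against 0.609 ± 0.177 FPKM in control samples (SD, n = 4 and n = 5; log2 fold change 1.07, limma adjusted p = 0.018), and it entered the fit through its diabetic samples alone. Cblb, a ubiquitin ligase of the same pathways and the third riser, had 11.6 ± 0.687 FPKM in diabetic and 8.66 ± 0.543 FPKM in control samples (SD, n = 4 and n = 5; log2 fold change 0.39, limma adjusted p = 0.031). The rises of Lax1 and Sla2 were largest in the samples with most T cell markers, and the part of those cells was not tested.

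**Figure D5:**
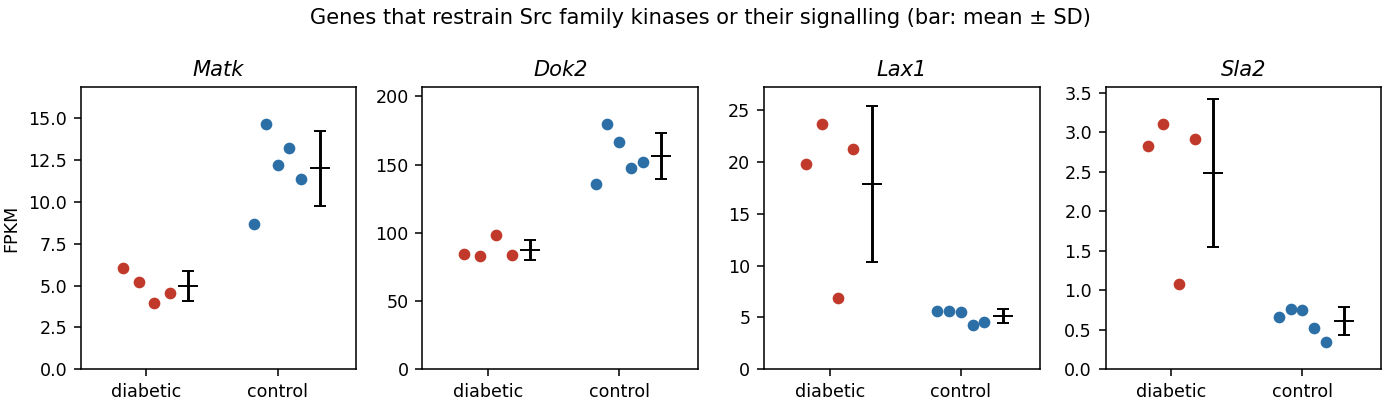
Levels (vertical axes, FPKM, each from 0) of Matk, Dok2, Lax1 and Sla2 in 4 diabetic samples (red) and 5 control samples (blue), with bars for mean ± SD. Matk and Dok2 are lower and Lax1 and Sla2 higher in all diabetic samples than in any control sample.

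The phosphatases listed as activators of the family, among them CD45 (Ptprc), which removes the tail phosphate, had negative differences in 5 of 5 tested genes (median log2 fold change -0.15), and 0 passed (limma). Ptpre had 10.3 ± 3.51 FPKM in diabetic and 15.4 ± 1.85 FPKM in control samples (SD, n = 4 and n = 5; log2 fold change -0.57, limma adjusted p = 0.096), and Ptprj had 23.4 ± 3.95 FPKM in diabetic and 29.8 ± 2.02 FPKM in control samples (SD, n = 4 and n = 5; log2 fold change -0.35, limma adjusted p = 0.11). Without diabetic 3 both passed (limma adjusted p = 0.010 and 0.017), and so they did with the sample weights of limma (log2 fold changes -0.73 and -0.37, limma adjusted p = 0.011 and 0.032). In these settings more genes passed over the whole table, 1126 without diabetic 3 and 1304 with sample weights, against 533 with all samples unweighted. Under 16 of 18 alternatives neither Ptpre nor Ptprj passed. Of 21 tested myeloid effectors and substrates, 16 had negative differences (median -0.12), 2 fell and 0 rose. Of all genes tested, 47.7% had positive differences, 2.08% fell and 2.68% rose. Pxn, the focal adhesion scaffold paxillin, fell to 23.6 ± 3.31 FPKM in diabetic samples, against 32.5 ± 2.82 FPKM in control samples (SD, n = 4 and n = 5; log2 fold change -0.45, limma adjusted p = 0.047), and Prkcd, a protein kinase C, fell to 71.6 ± 7.38 FPKM in diabetic samples, against 96.5 ± 8.30 FPKM in control samples (SD, n = 4 and n = 5; log2 fold change -0.43, limma adjusted p = 0.049). With 1 sample left out each passed 2 of 9 times, without diabetic 3 and without control 4, and the limma adjusted p reached 0.15 for both without diabetic 2. Syk, the kinase that Src family members switch on at Fc receptors, was not among those that passed (log2 fold change -0.092, limma adjusted p = 0.71), and it was picked with its values known. Of 9 lymphocyte partners 4 rose and 0 fell (median log2 fold change 0.60), and the 4 were the T cell signalling genes Skap1, Zap70, Cd247 and Lat. Zap70, the kinase that docks on the activated T cell receptor, had 7.63 ± 3.39 FPKM in diabetic and 1.86 ± 0.472 FPKM in control samples (SD, n = 4 and n = 5; log2 fold change 1.51, limma adjusted p = 0.013). The log2 fold change was 2.04 for Cd247 and 1.54 for Lat, and 1.36 for Skap1, which entered the fit through its diabetic samples alone. T cell markers moved with these 4 genes, and their part was not tested. Without diabetic 4, Zap70 and Cd247 no longer passed (limma adjusted p = 0.051 and 0.056). With 1 sample left out Lat passed 1 of 9 times, without diabetic 3, and its limma adjusted p reached 0.13 without diabetic 4. The B cell partners Cd79a, Cd79b, Cd22, Cd72 and Blnk had log2 fold changes between 0.24 and 0.60 without passing.

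Among 10100 named genes tested, the one most like each member over the 9 samples was found by Pearson's r of log2(FPKM + 1). It was Ccdc126 for Lyn (r = 0.99), Zfp831 for Blk (0.99), Zfp84 for Fgr (0.97), Polr3k for Yes1 (0.95), Taf6 for Csk (0.95), Pcnx4 for Pag1 (0.94), Itga5 for Src (0.94) and Zfp46 for Fyn (0.94). Next to Itga5, an integrin subunit of 26.9 ± 7.10 FPKM in diabetic and 36.8 ± 5.02 FPKM in control samples (SD, n = 4 and n = 5), Src was most like Trim8 and Nfic (both r = 0.94). All samples carry the same group split, and the few reads of Src and Yes1 add counting error, so these likenesses describe the 9 libraries only.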

How the data were processed

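The authors deposited 1 table of FPKM values for 41096 genes in 9 samples, with gene length, position and biotype, per the file headers. GRCm38 and mm10 appear in the submitters' processing notes. Which aligner, counter and strand setting were used is not given in the sources used here. Of 30026 gene names shared with GENCODE M21 on GRCm38, 0 had the same start, so member positions are the table's own, on a build not named here. Columns were matched to samples by title, with 0 left over. Divided by the worth of 1 read at each gene length, 100% of values were whole reads (within 0.05 of a whole number), and the authors' divisors differ from the plain totals. Reads that fall in close relatives of a kinase may be shared or lost. A total of 9 rows overlap 4 members, with mean levels of at most 0.35 FPKM, and without a stated strand their reads cannot be told from the member's.

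The test was limma 3.58.1 in R 4.3.3 (lmFit, eBayes with trend and robust moderation, group as the only factor, two-sided) on log2(FPKM + 1), which understates the change of low genes. Src and Yes1 had an exact permutation test. On data simulated from these samples the fit was tested before use. Members, lists and the rule for named genes were chosen with earlier results of these data known. The rule takes all members, Lck and Frk, up to 4 passing genes of each list (or 2 with the smallest p), and the genes most like each member. Some listed genes are not reported here and were left out of the lists and sums. Cblb, Syk, Ptprc, Klrd1, Cd2, the B cell partners and the single B cell and macrophage markers were named after their values were seen. Alternatives covered the pseudocount, the filter, limma voom on recovered reads, the scaling, sample weights, the replicate number as a block and each sample left out. The markers of dendritic cells (0 of 3 tested passed), natural killer cells (1 of 6, Klrd1), mast cells (0 of 7), large peritoneal macrophages (0 of 6), other macrophages (0 of 6), platelets and erythroid cells (0 of 4) and eosinophils (0 of 3) were read in the same fit.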

Additional observations from a re-analysis of the deposited data

Results flagged for a closer look

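In 4 of 44 groups examined, 1 sample stood apart from the rest of its group by Dixon's criterion, which chance alone meets in about 1 of 20 groups. Lyn in diabetic 3 was 117 FPKM, against 97.3 to 99.7 FPKM in the other diabetic samples. Dok2 in diabetic 3 was 98.2 FPKM, against 82.8 to 84.4 FPKM in the other diabetic samples. Sla2 in diabetic 3 was 1.08 FPKM, against 2.83 to 3.11 FPKM in the other diabetic samples. Frk, the epithelial relative of the family, was listed at 0.267 FPKM in control 4 (18 reads), against 0.0292 to 0.0708 FPKM in the other control samples.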

How the results depend on the processing

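Of the 6 members in the fit, 0 passed under 17 of 18 alternatives and 1 (Fgr) with sample weights. The number of genes that passed over all genes, 533, was 183 without a filter, 1304 with sample weights and 62 with the replicate block. Leaving out 1 sample gave 115 (without diabetic 4) to 1126 (without diabetic 3) passing genes. It gave 119 with diabetic 2 left out, 198 with control 3, 230 with diabetic 1, 325 with control 1 and 352 with control 4 left out. Same-numbered samples did not deviate together (correlations -0.26 to 0.16 over 4 pairs), so the replicate block is a sensitivity check only. With the replicate block Matk (limma adjusted p = 0.056), Lck (0.084), Lax1 (0.089), Sla2 (0.083), Skap1 (0.062), Zap70 (0.093), Cd247 (0.080), Lat (0.11), Pxn (0.12) and Prkcd (0.14) no longer passed, and Dok2 did. Without a filter Lax1 (0.055) and Lat (0.085) were lost, and Lat was lost with limma voom on reads (0.058 and 0.062). Pxn passed under 6 and Prkcd under 5 of 18 alternatives.

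Lyn, Blk, Fyn and Pag1 stayed positive, and Fgr and Src negative, in every alternative run. With the replicate block over 4 same-numbered pairs, the mean difference was -0.16 for Src (diabetic lower in 4 of 4; exact sign-flip p = 0.125, the smallest possible), 0.039 for Yes1 (exact p = 0.5) and -0.033 for Frk (exact p = 0.875). Over the fits that left out 1 sample, members passing in limma stayed at 0 and Src passed its exact test in 1 of 9, the difference of Src ran from -0.20 to -0.11, Csk from -0.0030 to 0.072 and Frk from -0.041 to 0.034. Frk turned to 0.065 with a pseudocount of 0.01, and the cause was not tested. Src was -0.43 with that pseudocount and -0.37 with 0.1, since a pseudocount of 1 exceeds its level. Precision is limited by 26 to 52 reads per sample for Src and 2 to 16 for Yes1.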

Other observations

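The ratio of Lyn to Fgr within a library, which no scaling between samples can change, was 2.49, 2.48, 1.73 and 1.84 in diabetic 1 to 4, against 1.42, 1.44, 1.10 and 1.63 in control 1, 2, 3 and 4 and 1.02 in control 5. The groups did not overlap. The pair was chosen after its values were seen, and the ratio carries no test.

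Large peritoneal macrophage markers summed to 150.0 to 295 FPKM in diabetic and 88.2 to 145 FPKM in control samples. Of 6 tested markers 6 were positive, beside 47.7% of all genes tested, and 0 passed. Mast cell markers, from a cell type in which Lyn and Fyn act behind the IgE receptor, summed to 113 to 380 FPKM in diabetic and 283 to 705 FPKM in control samples, with 7 of 7 negative and 0 passing.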
